A study of Mus musculus with 28 samples.

Results

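A set of surface and matrix genes that are used to tell stem cell compartments of the hair follicle apart were followed through every RNA-seq library of a study of Alkbh5, an m6A eraser, that is, an RNA demethylase. The 10 genes were chosen by name (Cd34, Cd200, Cdh3, Lgr5, Lgr6, Lrig1, Npnt, Postn, Gas1 and Ly6a) and were all found among the 56691, 47243 and 57010 genes of the 3 deposited tables. Each dataset held 2 wild-type (WT) mice and 2 mice labelled as conditional knockouts (cKO) of Alkbh5, all at postnatal day 69. A dataset came from bulge stem cells and another from hair germ stem cells, both prepared by SHERRY2, which tags RNA/cDNA hybrids with a transposase. A further dataset of hair germ stem cells was prepared by SMART-seq, an amplification of full-length cDNA. Libraries started from 200 ng of RNA for the bulge and 40 ng for the hair germ. The cells had been sorted from skin by flow cytometry. The sources used here do not give the sorting markers, the Cre driver, the deleted part of Alkbh5, or the strain and sex of the mice. The 16 m6A libraries of the series were not analysed here.

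The bulge is the resting stem cell reserve of the follicle, and the hair germ is the small cluster beneath it that is activated first when a hair cycle starts. In mouse skin the sialomucin Cd34 is the classical surface marker of bulge cells, and P-cadherin (Cdh3) is highest in the hair germ. The R-spondin receptor Lgr5 marks the lower bulge and hair germ, its relative Lgr6 and the growth factor receptor inhibitor Lrig1 mark upper compartments, and Ly6a (Sca-1) marks the infundibulum and interfollicular epidermis and is low in bulge cells.

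The bulge libraries held 14676168 to 21187283 reads in genes and the SMART-seq libraries 9001396 to 14416601. The hair germ SHERRY2 libraries were shallower, with 1513001 and 488648 reads in the WT mice and 1526070 and 2317407 in the cKO mice. At least 1 read fell in 38272 to 42826 genes of each of these libraries, against 21171 to 22959 in the bulge and 22992 to 24641 in SMART-seq. Alkbh5 was at 98.9 and 92.1 CPM (reads scaled to the library total) in WT bulge and at 4.45 and 2.52 in cKO bulge. It was at 62.8 and 61.4 CPM in WT and at 17.7 and 6.90 in cKO hair germ by SHERRY2. In SMART-seq it was at 132 and 95.3 CPM in WT and at 84.8 and 105 in the libraries labelled cKO, so the loss of Alkbh5 was not seen there and that label is used as given. The log2 fold change of Alkbh5 was -4.97 in the bulge (edgeR adjusted p = 4.9e-04), -1.98 in hair germ SHERRY2 (limma adjusted p = 0.724, edgeR on whole reads 0.00993) and -0.28 in SMART-seq (edgeR adjusted p = 1.00). All 6 keratinocyte markers had reads in every library, with summed levels of 10992 to 28924 CPM. Summed endothelial markers were at 0.655 to 4.86 CPM in the bulge, 1.49 to 2.15 in SMART-seq and 37.1 to 135 in hair germ SHERRY2. Summed fibroblast markers were at 9.40 to 24.8, 18.9 to 90.2 and 58.3 to 239 CPM in the same order, and summed immune markers at 42.1 to 187, 19.0 to 98.3 and 169 to 524. These sums include any background reads, for which a scale is given below. The 3 tables were normalized separately and cell type, input and mice differ between them, so levels are set side by side and no level was tested between tables. In bulk RNA, fewer cells of a type and less RNA per cell cannot be told apart.

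The genes lie on several chromosomes and are given here at the positions in the bulge table, which names no build. These positions do not match the GRCm38.p6 promoter coordinates given further below and are not comparable with them. Cd34 is at chromosome 1, 194621127 to 194643587, and Lgr6 at chromosome 1, 134911039 to 135033014. Npnt is at chromosome 3, 132587506 to 132656052, and Postn at chromosome 3, 54268530 to 54298458. Lrig1 is at chromosome 6, 94581510 to 94677139, Cdh3 at chromosome 8, 107237523 to 107283929, and Lgr5 at chromosome 10, 115286216 to 115423685. Gas1 is at chromosome 13, 60322219 to 60325179, Ly6a at chromosome 15, 74866726 to 74869880, and Cd200 at chromosome 16, 45202498 to 45229416. The exonic length ranged from 1205 bases for Ly6a to 10264 for Lgr5, so levels of different genes are compared only as FPKM, which is CPM per kilobase of exon.

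Ranked by mean FPKM, Ly6a led the bulge dataset, with 152 to 266 FPKM and a median of 196, followed by the matrix protein periostin (Postn) with 85.2 to 201. These overlapped, and both stood above Gas1 at 46.4 to 65.7. Lrig1, Cdh3, Lgr6, Cd34, Cd200 and Npnt followed, each overlapping its neighbour in the order. Lgr5 was last at 3.10 to 7.39 FPKM, below every Npnt value. Ly6a again led in hair germ SHERRY2, at 63.1 to 347 FPKM, apart from Gas1 at 18.0 to 31.9, and Lgr5 was again last at 1.05 to 8.68, overlapping Cd34 at 1.48 to 7.02. The order was different at both ends in hair germ SMART-seq. There Postn led at 92.1 to 501 FPKM, apart from Gas1 at 56.9 to 77.0, and Ly6a was last at 0.369 to 7.20, below every Lgr5 value of 9.03 to 17.9.

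**Figure D1:**
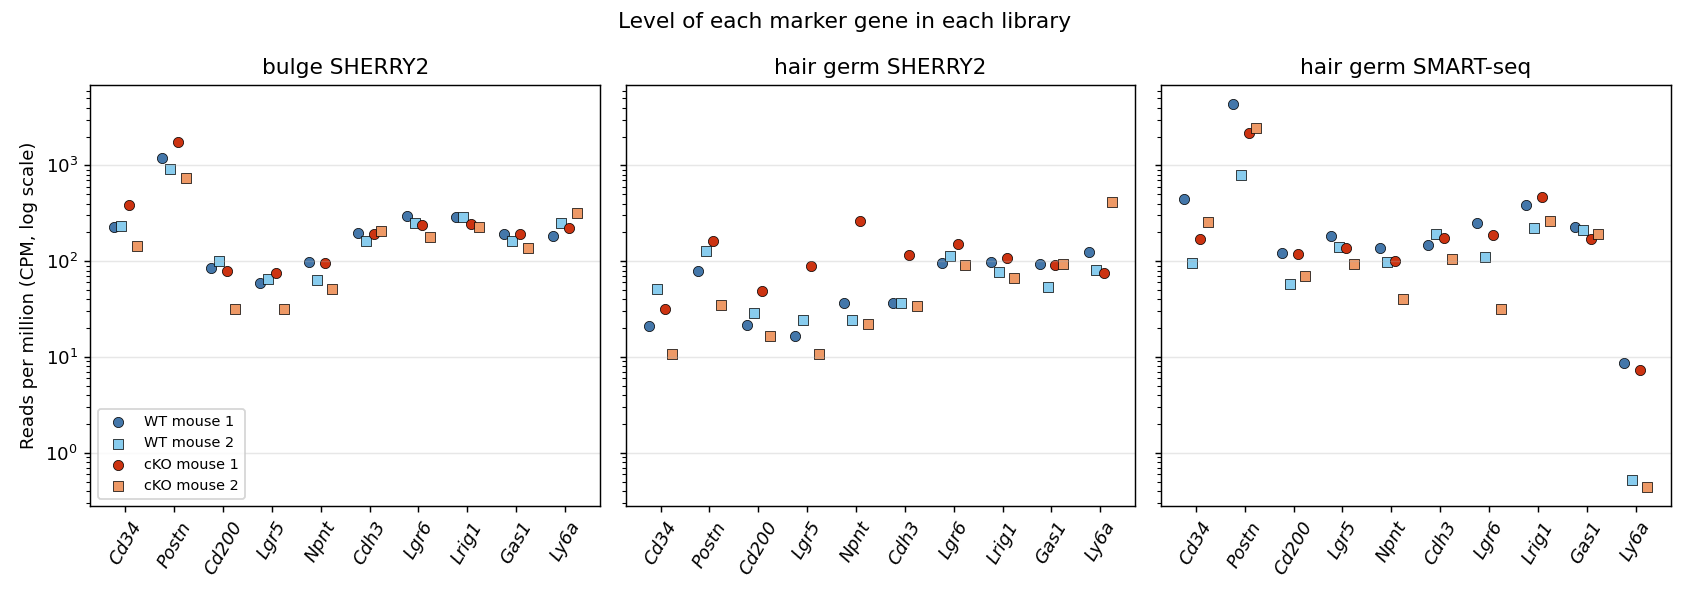
Level of each marker gene (x axis) in each library in CPM on a log axis, 1 panel per dataset, with WT mice in blue and mice labelled cKO in red. Ly6a is among the higher genes in both SHERRY2 panels and lies between 0.444 and 8.67 CPM in the SMART-seq panel, and Npnt of cKO mouse 1 stands at 264 CPM above the other hair germ SHERRY2 libraries.

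Cd34 was listed lower than in the bulge in SHERRY2 hair germ and over the same range as the bulge in SMART-seq hair germ. In the bulge it was at 228 and 231 CPM in the WT mice and at 388 and 145 in the cKO mice. Its hair germ SHERRY2 values were 21.2 and 51.2 CPM in WT and 31.5 and 10.8 in cKO. SMART-seq hair germ had 446 and 96.3 CPM in WT and 169 and 258 in the libraries labelled cKO. The hair germ SHERRY2 values were all below the bulge values, and the SMART-seq values spanned them. The hair germ SHERRY2 values rest on 25 to 48 reads, and the 25 reads of WT mouse 2 give a 95% exact Poisson interval of 33.1 to 75.5 CPM, which covers counting error only.

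Cdh3, which encodes P-cadherin, was the steadiest of the genes in the bulge. It was at 197 and 164 CPM in WT bulge and at 194 and 205 in cKO bulge, and the highest library was 1.25 times the lowest. The hair germ SHERRY2 libraries had 36.4 and 36.8 CPM in WT and 116 and 34.1 in cKO, so 1 cKO mouse stood above 3 libraries at a like level. The SMART-seq level was at 149 and 193 CPM in WT and at 174 and 107 in the libraries labelled cKO, and the genotypes overlapped. As listed, no hair germ library had more Cdh3 than the highest bulge library.

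The ratio of Cd34 to Cdh3 within a library does not depend on how a table was scaled, and asks whether bulge and hair germ libraries were separated by their classical markers. As a ratio of FPKM it was 0.695 and 0.847 in WT bulge and 1.20 and 0.425 in cKO bulge. It was 0.350 and 0.835 in WT and 0.163 and 0.190 in cKO hair germ SHERRY2. On the log2 scale with a pseudocount of 0.5 CPM, the mean was 0.30 ± 0.62 (SD, n = 4) in the bulge and -0.95 ± 1.05 (SD, n = 4) in hair germ SHERRY2. The difference of 1.24 did not pass a two-sided exact permutation test over libraries (p = 0.0857), and WT mouse 2 of the hair germ lay among the bulge values. Without that library the difference was 1.72 with an exact permutation p of 0.0571, the smallest that 4 against 3 libraries can give. Over the WT libraries alone the difference was 0.50 (exact permutation p = 0.667, a design that cannot reach 0.05), and the lowest hair germ ratios were those of the 2 cKO mice. In SMART-seq the ratio was 1.80 and 0.300 in WT and 0.584 and 1.46 in the libraries labelled cKO. With those libraries as the hair germ, the difference from the bulge turned to -0.15 (two-sided exact permutation p = 0.8). Cd34 was therefore above or below Cdh3 in libraries of either cell type.

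**Figure D2:**
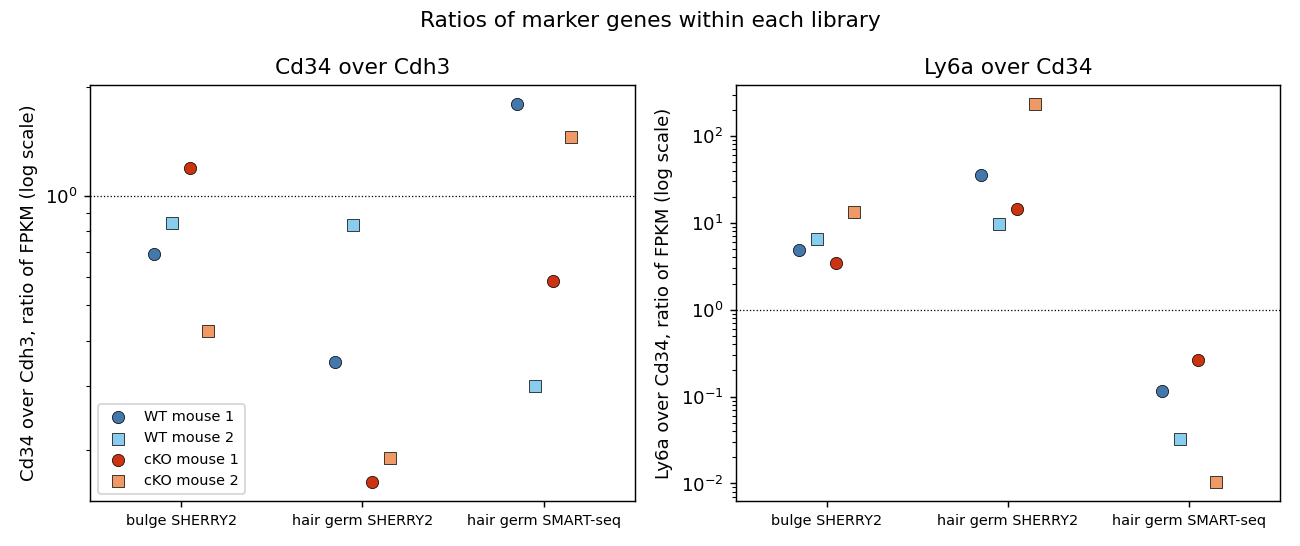
Ratio of 2 marker genes within each library, computed from FPKM, on log axes; the x axis gives the dataset and each point is 1 mouse. Cd34 over Cdh3 (left) lies on both sides of 1 in the bulge and in SMART-seq, and Ly6a over Cd34 (right) is 3.46 to 13.4 in the bulge, 9.68 to 234 in hair germ SHERRY2 and 0.0104 to 0.264 in SMART-seq.

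Lgr5, a receptor for R-spondins that strengthens Wnt signalling, was at 58.9 and 65.7 CPM in WT bulge and at 75.8 and 31.9 in cKO bulge. By SMART-seq it was at 184 and 141 CPM in WT and at 137 and 92.7 in the libraries labelled cKO, each above every bulge value as listed. Hair germ SHERRY2 gave 16.5 and 24.6 CPM in WT and 89.1 and 10.8 in cKO, on 12 to 136 reads. The cKO mouse with 136 reads was the only one of these 4 libraries above the WT bulge values as listed. The FPKM ratio of Lgr5 to Lgr6 was 0.119 to 0.212 in the bulge, 0.0783 to 0.395 in hair germ SHERRY2 and 0.487 to 1.95 in SMART-seq, so Lgr5 relative to Lgr6 was listed highest in the SMART-seq hair germ.

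Reads on genes that skin cells have no known use for give a scale for the lowest of these values. Over 1994 odorant and vomeronasal receptor genes, the median was 0 FPKM in every library. Their 95th percentile was 0 FPKM in every bulge and SMART-seq library. For hair germ SHERRY2 this percentile was 1.54 and 3.71 FPKM in the WT mice and 2.23 and 1.03 in the cKO mice. It marks the upper tail of these genes and not the typical background of a gene. Lgr5 in WT mouse 2, at 2.39 FPKM on 12 reads, lay below that percentile. Lgr5 in WT mouse 1, at 1.61 FPKM, and in cKO mouse 2, at 1.05, lay just above it. Cd34 was at 2.90 and 7.02 FPKM in the WT mice and at 4.31 and 1.48 in the cKO mice, above the 95th percentile but below the 99th, which was 3.21 and 7.08 in WT and 4.69 and 2.09 in cKO. The hair germ SHERRY2 ratios of Cd34 to Cdh3 and of Ly6a to Cd34 rest on these Cd34 values. The 9 genes other than Lgr5 were above the 95th percentile of their own library in all 4 cases. Summed endothelial markers ranked the 4 libraries as that percentile did, at 58.8 and 135 CPM in WT and 79.9 and 37.1 in cKO. Summed fibroblast and immune markers had the same order of libraries. The part of background reads in these sums was not tested.

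**Figure D3:**
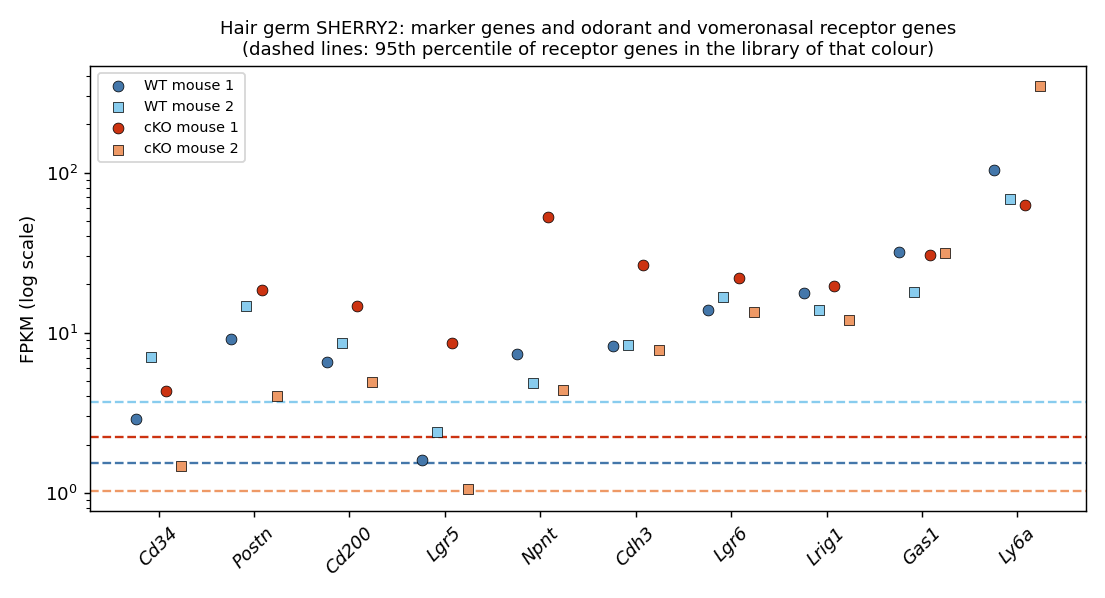
FPKM of each marker gene (x axis) in the 4 hair germ SHERRY2 libraries on a log axis, with the 95th percentile of 1994 odorant and vomeronasal receptor genes in each library as a dashed line of the same colour. Lgr5 lies at or near the line in 3 libraries, and Gas1 and Ly6a lie well above every line.

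Lgr6, the R-spondin receptor of the isthmus, was at 295 and 253 CPM in WT bulge and at 239 and 179 in cKO bulge. It was at 95.2 and 115 CPM in WT and at 151 and 91.9 in cKO hair germ SHERRY2. SMART-seq gave 252 and 112 CPM in WT and 187 and 31.7 in the libraries labelled cKO. Both cKO bulge values lay below both WT values, and the genotypes overlapped in both hair germ datasets on this scale. Lrig1, which restrains ErbB receptors, was close between mice of one genotype in the bulge, at 291 and 290 CPM in WT and at 243 and 230 in cKO. Its hair germ values were 99.1 and 77.8 CPM in WT and 109 and 67.3 in cKO by SHERRY2, and by SMART-seq 386 and 225 in WT and 463 and 265 in the libraries labelled cKO. WT and cKO overlapped in both.

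Cd200, an immunoglobulin-family protein that restrains immune cells, was at 84.4 and 101.5 CPM in WT bulge and at 79.4 and 31.8 in cKO bulge. It was at 21.8 and 28.7 CPM in WT and at 48.5 and 16.4 in cKO hair germ SHERRY2. SMART-seq gave 123 and 57.3 CPM in WT and 120 and 69.7 in the libraries labelled cKO. The 2 cKO bulge mice lay further apart than the WT mice, which differed 1.20-fold.

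Postn, a secreted matrix protein, was at 1183 and 912 CPM in WT bulge and at 1750 and 741 in cKO bulge. It was at 80.0 and 127 CPM in WT and at 161 and 35.0 in cKO hair germ SHERRY2. The SMART-seq libraries had 4361 and 801 CPM in WT and 2196 and 2456 in the libraries labelled cKO. The genotypes overlapped in each dataset. Nephronectin (Npnt), a basement membrane ligand of the integrin with the Itga8 subunit, was at 98.6 and 63.0 CPM in WT bulge and at 94.7 and 51.6 in cKO bulge. It was at 137 and 97.1 CPM in WT and at 100 and 40.5 in the SMART-seq libraries labelled cKO. Its hair germ SHERRY2 values were 37.0 and 24.6 CPM in WT and 264 and 22 in cKO. The 264 CPM of cKO mouse 1 rest on 403 reads and stand above the other 3 libraries.

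Gas1, a surface co-receptor for hedgehog ligands, was the most even gene across the SMART-seq libraries, with 228 and 213 CPM in WT and 169 and 193 in the libraries labelled cKO. It was at 191 and 163 CPM in WT and at 194 and 138 in cKO bulge, and at 94.5 and 53.2 in WT and at 90.4 and 93.2 in cKO hair germ SHERRY2. The SMART-seq groups did not overlap, while the bulge and SHERRY2 hair germ groups did.

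Ly6a was high in both SHERRY2 datasets and low in SMART-seq. In the bulge it was at 183 and 250 CPM in WT and at 222 and 320 in cKO. By SHERRY2 the hair germ had 126 and 81.9 CPM in WT and 76.0 and 418 in cKO. SMART-seq gave 8.67 and 0.519 CPM in WT and 7.36 and 0.444 in the libraries labelled cKO, the lower value of each pair resting on 6 and 4 reads. Ly6a exceeded Cd34 in FPKM in all 8 SHERRY2 libraries and lay below it in all 4 SMART-seq libraries.

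Markers of differentiating interfollicular keratinocytes, cells of the epidermis that Ly6a marks in its basal layer, were counted beside it. Their summed level over 7 genes was 5189 to 5822 CPM in the bulge, 2278 to 13486 in hair germ SHERRY2 and 645 to 933 in SMART-seq. Krt10, a keratin of suprabasal epidermis, was at 337 and 51.0 CPM in WT and at 369 and 117 in the SMART-seq libraries labelled cKO, which is high and low in the same mice as Ly6a. Krt1, Krtdap, Lor, Ivl and Flg were also higher in both mice with high Ly6a than in both with low Ly6a. Krtdap, for example, was at 52.4 and 9.17 CPM in WT and at 64.7 and 16.2 in the libraries labelled cKO. Only Sbsn of the 7 genes was in the opposite order, at 282 and 569 CPM in WT and at 385 and 734 in the libraries labelled cKO. The sum over the 7 genes was 783 and 645 CPM in WT and 933 and 887 in those labelled cKO. Sbsn made most of this sum in the 2 mice with low Ly6a, so the sum does not show the order of the other genes. The 2 low mice had Y-linked reads (278 and 269 CPM), and the 2 high mice had none. By contrast, Krt10 in hair germ SHERRY2 was highest in WT mouse 1 (4306 CPM), whereas Ly6a was highest in cKO mouse 2, where Krt10 was at 1248. The part of these cells and of sex in the Ly6a levels was not tested. Ly6a belongs to a cluster of closely similar genes, and how reads matching several genes were counted is not given in the sources used here, so its level is uncertain.

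In the bulge, the comparison of cKO with WT put 0 of the 10 genes past an adjusted p of 0.05, while 3 were lower at an unadjusted p under 0.05: Lrig1, Lgr6 and Cd200. edgeR called 0 of 10, against 3.04% of all 15672 genes tested, and DESeq2 also called 0 of 10, with 2 unadjusted. At the unadjusted threshold the edgeR background was 18.9%, and DESeq2 put 2749 of 26954 genes past it. The log2 fold change of cKO over WT was -0.47 for Lrig1 (SE 0.15, edgeR adjusted p = 0.134), -0.57 for Lgr6 (SE 0.19, adjusted p = 0.162) and -0.91 for Cd200 (SE 0.37, adjusted p = 0.229). These were also the 3 genes whose cKO libraries both lay below both WT libraries after TMM scaling, an order that 29.5% of 9800 compared genes showed. The reverse order was seen in 0 of the 10 genes and 26.2% of the 9800. Cd34 (0.04, SE 0.38), Cdh3 (-0.03, SE 0.16) and Postn (0.07, SE 0.38) were near 0. Ly6a was at 0.16 (SE 0.22), Gas1 at -0.27 (SE 0.20), Npnt at -0.33 (SE 0.32) and Lgr5 at -0.38 (SE 0.35). The median over the 10 genes was -0.30, and over all genes tested -0.01. TMM scaling moved cKO against WT by -0.17 on the log2 scale relative to CPM.

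The 2 cKO bulge mice were not alike for these genes. Cd34, Cd200, Lgr5 and Postn were 2.36 to 2.68 times higher in cKO mouse 1 than in cKO mouse 2, while Cd34 differed 1.01-fold between the WT mice. Without cKO mouse 1, 4 genes passed as lower (edgeR adjusted p): Cd200 at -1.69 (1.5e-08), Lgr5 at -1.11 (9.8e-04), Npnt at -0.80 (0.0213) and Cd34 at -0.81 (0.0311), where 4.84% of 16795 genes were called lower. Without cKO mouse 2, no gene passed, with Cd200 at -0.40, Lgr5 at 0.11 and Cd34 at 0.58. In both fits the lone cKO library is assumed to vary like the other groups. Summed immune markers were at 187 and 147 CPM in WT bulge and at 71.3 and 42.1 in cKO bulge, with the leucocyte gene Ptprc at 1.06 to 5.59, and their part in the Cd200 values was not tested. Y-linked reads were at 335 CPM in bulge WT mouse 2 and at 0.0655 to 0.472 in the other bulge mice. Sex was thus not balanced between the genotypes of the bulge, and its part in these levels was not tested.

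Of the 10 genes in hair germ SHERRY2, 9 had a positive fold change in the limma fit and none passed. limma called 0 of 10, with 1 at an unadjusted p under 0.05, against 0.0077% of 38953 genes, or 4.62% unadjusted. edgeR on the recovered reads also called 0 of 10, with 3 unadjusted, against 0.377% of 16707 genes, or 4.93% unadjusted. Npnt was at 1.75 on the log2(normalized count + 1) scale (SE 0.71, limma adjusted p = 0.970), Ly6a at 1.25 (SE 0.93), Cdh3 at 1.20 (SE 0.67) and Lgr5 at 1.04 (SE 0.62), each with the same adjusted p. Cd34 was the 1 gene below 0, at -0.38 (SE 0.60). The median of the 10 genes was 0.71, and that of all genes tested 0.06. Every list of related genes described below also had a positive median in this fit, from 0.11 to 0.81. The fit keeps the size factors of the deposited values. As differences of mean log2 CPM, Cd34 (-0.84), Postn (-0.42) and Lrig1 (-0.037) were below 0, so the count of positive genes depends on scaling. In the authors' deposited table the log2 fold change of Npnt was 2.18 and that of Ly6a 1.81, with adjusted p-values of 1.00.

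These positive values came from different mice. For Npnt, Lgr5 and Cdh3 the high library was cKO mouse 1, and without it they were at 0.35, -0.07 and 0.70 (limma adjusted p = 0.993 for each). For Ly6a it was cKO mouse 2. After TMM scaling, only Cdh3 and Lgr6 had both cKO libraries above both WT libraries, an order shown by 16.7% of 13628 genes. The reverse order was seen in 0 of the 10 and in 14.4% of the 13628. On unscaled CPM none of the 10 had both cKO libraries above both WT libraries. Scaling moved cKO against WT by 0.14 relative to CPM here.

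Hair germ cKO mouse 1 also stood apart for other follicle genes. The stem cell transcription factor Lhx2 was at 518 CPM there and at 24.2 to 67.5 in the other 3 libraries, Tbx1 at 341 against 16.4 to 34.8, and the hair gene Hoxc13 at 119 against 3.97 to 5.61. Tbx1, Lhx2 and Hoxc13 were picked here for their values. Other follicle genes were lowest in that mouse, among them Krt15 (2514 CPM against 4085 to 5771), Cxcl14 (174 against 347 to 420) and Bmp4 (32.8 against 61.4 to 138). These were likewise picked for their values. That mouse was the 1 of the 4 with Y-linked reads at 107 CPM, against 0 to 2.05 in the others. Summed melanocyte markers were at 176 CPM there and at 45.3 to 100.3 in the others, with the pigment enzyme gene Dct at 78.6 against 7.34 to 24.6. Pmel and Tyrp1 were also highest in that mouse. Mitf, at 24.9 CPM, was near the 24.6 of WT mouse 2. Mlana (4.59) and Tyr (6.55) were lower there than in WT mouse 2 (8.19 and 14.3). Summed keratinocyte markers were at 12401 CPM against 17358 to 19380. Krt5 and Krt14 make most of this sum, and they and Itga6 were lowest in that mouse. Trp63 was highest there, at 209 CPM. Itgb4, at 858, was above both WT mice (652 and 698), and Epcam, at 182, lay within the range of the others. The part of sex and of these cell types in the levels of this mouse was not tested.

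In SMART-seq, none of the 10 genes passed. edgeR called 0 of 10, none at an unadjusted p under 0.05, against 0% of 17547 genes, of which 1.02% had an unadjusted p under 0.05. DESeq2 called 0 of 10 as well, with 0 unadjusted. Fold changes ran from -0.78 for Lgr6 (SE 0.85) and -0.76 for Npnt (SE 0.46) to 0.22 for Lrig1 (SE 0.40), with a median of -0.31 against -0.02 over all genes tested. With 1 library left out, Lgr6 ran from -2.52 (without cKO mouse 1) to -0.0095 (without cKO mouse 2), and was at -0.027 without WT mouse 1. Npnt ran from -1.52 to -0.27 without the same cKO mice. Lgr5 (-0.53, SE 0.27) and Gas1 (-0.31, SE 0.20) were the genes whose groups did not overlap after TMM scaling, both lower in the libraries labelled cKO, an order that 12.6% of 9596 genes showed. The reverse order was seen in 0 of the 10 and in 9.8% of the 9596.

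The difference of the genotype effect between datasets was tested directly and passed for 0 of the 10 genes. Each of these fits took 1 spread per gene for both datasets, although depth and RNA input differ between them. For SMART-seq minus bulge, edgeR called 0 of 10, with 0 unadjusted, against 0.0413% of 19371 genes, or 6.66% unadjusted, and DESeq2 also called 0. Cd200 was at 0.95 (SE 0.69, adjusted p = 0.820) and Lrig1 at 0.69 (SE 0.46, adjusted p = 0.806). For hair germ SHERRY2 minus bulge, limma called 0 of 10, with 0 unadjusted, against 0% of 36237 genes, or 4.41% unadjusted. edgeR on whole reads called 0, with 3 unadjusted, against 13 genes higher and 18 lower of 26139, and 1953 unadjusted. In the limma fit Npnt was at 1.50 (SE 1.27), Cd200 at 1.04 (SE 0.76) and Lgr6 at 0.57 (SE 0.42), each with an adjusted p of 0.899. Over all genes of that fit the median was -0.39. edgeR on whole reads put them at 2.35, 1.26 and 0.79 (adjusted p = 0.442, 0.646 and 0.792), with a median of -0.20 over all genes. Lgr6 thus lay below WT in the bulge and above it in hair germ SHERRY2 after TMM scaling, with a difference that did not pass.

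**Figure D4:**
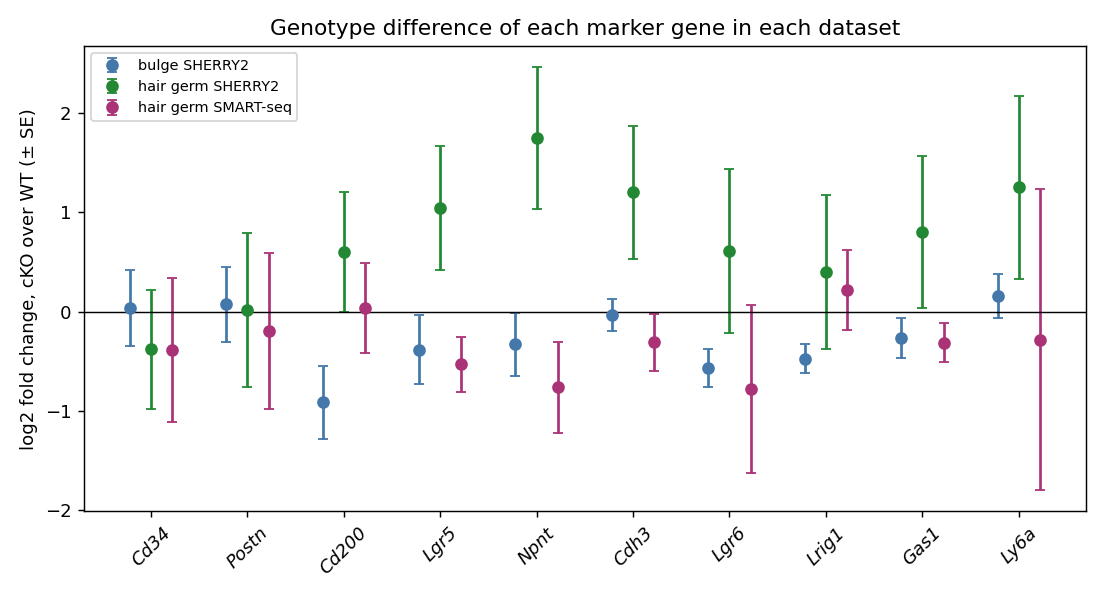
log2 fold change of cKO over WT for each marker gene (x axis), with bars of 1 SE, in the bulge (edgeR), hair germ SHERRY2 (limma on log2 normalized counts) and hair germ SMART-seq (edgeR). Npnt in hair germ SHERRY2 is the largest value at 1.75, and no gene passed an adjusted p of 0.05 in any dataset.

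To see which of the 10 genes went up and down together from mouse to mouse, each library was expressed as log2(CPM + 1) minus its dataset mean. Over the 12 libraries, Cd34 and Postn were the most alike pair, with a Pearson r of 0.93. Npnt was next with Cdh3 (0.91) and Lgr5 (0.90), followed by Cd200 with Lgr5 (0.80). Cd34 and Cdh3 had an r of -0.00096. These are descriptions over libraries that share depth and cell mixture within a dataset. The Npnt, Lgr5 and Cdh3 values are led by 1 mouse, hair germ SHERRY2 cKO mouse 1. Ly6a had an r of -0.29 with Lgr5 and of -0.12 with Cd34.

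Among 8413 genes with a mean of at least 10 CPM in every dataset, those most like Cd34 were Col8a2 (r = 0.98), Col6a1 (0.95) and Xylt1 (0.94). Col8a2 and Col6a1 encode collagen chains and Xylt1 starts glycosaminoglycan chains. Fibroblast markers were at 90.2 CPM summed in the SMART-seq library with the most Cd34 and Postn, of which Col1a2 made 82.1, while Lum was at 0, Dpt at 0.139 and Col3a1 at 0.763 CPM. The other SMART-seq libraries had summed levels of 18.9 to 52.9 CPM. In the bulge the 7 fibroblast markers summed to 24.8 CPM in cKO mouse 1, where Cd34 and Postn were highest, and to 9.40 to 18.2 in the other mice. Col1a2 made 15.8 and Col1a1 7.01 of the 24.8 CPM. Dcn, Col3a1, Dpt, Pdgfra and Lum were each highest in another mouse, and Pdgfra, at 0.393 CPM, was lowest in cKO mouse 1. The part of fibroblasts in the Cd34 and Postn values was not tested. Those most like Cdh3 were the Wnt-responsive factor Tcf7 (0.97), Gtf2h3 (0.95) and Thumpd3 (0.94). Those most like Lgr5 were the junction protein Cgnl1 (0.97), Lhx2 (0.96) and Setbp1 (0.96). Hair germ SHERRY2 cKO mouse 1 had the largest deviation of both Cdh3 (1.25) and Lgr5 (1.78), so these likenesses rest largely on that mouse.

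**Figure D5:**
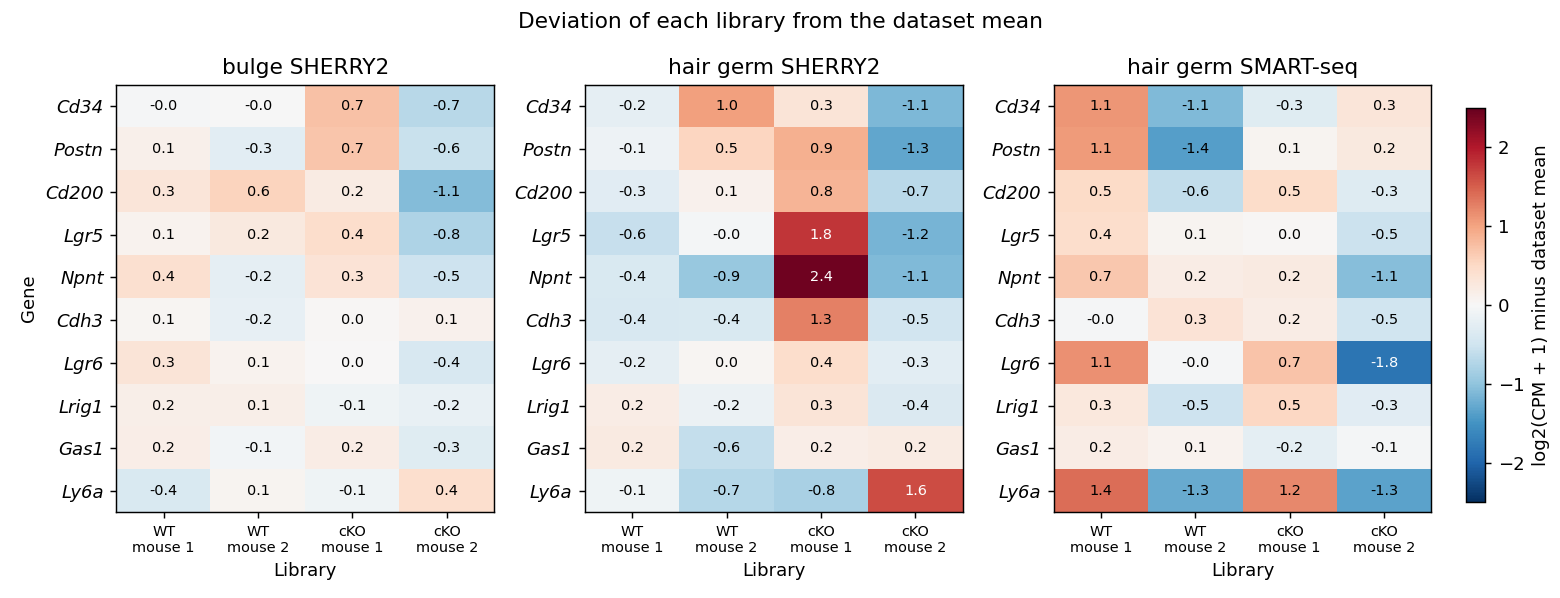
Deviation of each library (columns) from its dataset mean in log2(CPM + 1) for each marker gene (rows), blue below and red above. Cd34 and Postn share their lowest library in all 3 panels and their highest in the bulge and SMART-seq, and Npnt, Lgr5 and Cdh3 are high together in hair germ SHERRY2 cKO mouse 1.

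Promoters are shown for the most alike pair and for Npnt, the gene with the largest fold change. They run from 250 bases before to 50 bases after the first listed RefSeq start (GRCm38.p6), at chr1:194938571-194938870 on the plus strand for Cd34, chr3:54359017-54359316 on the plus strand for Postn and chr3:132950242-132950541 on the minus strand for Npnt. Each is written 5′ to 3′, and capitals mark GC boxes (GGGCGG) and CCAAT boxes (CCAAT) on either strand.
Cd34: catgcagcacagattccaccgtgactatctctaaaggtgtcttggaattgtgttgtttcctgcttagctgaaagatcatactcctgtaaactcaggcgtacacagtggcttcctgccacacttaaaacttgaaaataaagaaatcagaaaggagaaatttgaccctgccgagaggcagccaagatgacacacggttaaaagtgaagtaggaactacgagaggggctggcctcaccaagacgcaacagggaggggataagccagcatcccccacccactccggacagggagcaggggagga
Postn: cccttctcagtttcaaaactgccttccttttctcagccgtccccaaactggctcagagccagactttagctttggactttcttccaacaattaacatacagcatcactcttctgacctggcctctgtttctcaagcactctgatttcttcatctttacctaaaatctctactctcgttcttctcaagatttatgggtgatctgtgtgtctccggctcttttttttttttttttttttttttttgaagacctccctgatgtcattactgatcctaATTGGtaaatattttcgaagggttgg
Npnt: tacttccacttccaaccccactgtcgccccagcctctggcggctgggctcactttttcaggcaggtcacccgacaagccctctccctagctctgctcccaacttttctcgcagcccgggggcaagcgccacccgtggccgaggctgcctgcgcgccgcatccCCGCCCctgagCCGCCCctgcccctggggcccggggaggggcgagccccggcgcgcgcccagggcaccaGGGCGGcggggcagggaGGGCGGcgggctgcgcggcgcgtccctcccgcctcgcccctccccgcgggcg
Cd34 and Postn held no GC box and had a GC content of 50% and 40%. Npnt held 4 GC boxes within 88 bases before its start, at a GC content of 76.7%. Of the 7 genes with a listed promoter (Cd34, Cd200, Lgr6, Lrig1, Npnt, Postn and Gas1), 5 held a GC box, against 35.9% of 27025 promoters, and 3 held a CCAAT box, against 37.9%. A TCF/LEF motif (CTTTGA, in 16.2% of promoters), an LHX motif (TAATTA, 5.31%), a TATA box (TATAAA, 14.2%) and an AP-1 motif (TGANTCA, 7.93%) were in none of the 7. An NFAT motif (GGAAAA, 23.6%) was in Gas1 only. Matches on both strands were counted, and a match describes letters, not a bound site.

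Partners and neighbours of the 10 genes were counted from lists of related genes in the bulge, where edgeR had the most calls. Of 10 upper follicle and sebaceous duct genes, 1 rose and 1 fell, and the median was -0.90. At an unadjusted p under 0.05 there were 9, against 18.9% of all genes tested. Part of these genes were high in WT mouse 2 only, such as Krt79 at 358 and 796 CPM in WT and 346 and 308 in cKO. Krt80 was not, at 776 and 603 CPM in WT and 508 and 403 in cKO. Both examples were picked for their values. Scd1, a fatty acid desaturase of sebocytes, was at 196 and 200 CPM in WT and at 410 and 598 in cKO (log2 fold change 1.18, SE 0.20, edgeR adjusted p = 0.0288). Plet1, a surface protein of the junctional zone, was at 94.6 and 99 CPM in WT and at 68.0 and 66.4 in cKO (-0.70, SE 0.14, edgeR adjusted p = 0.0460). Scd1 lost its call without either WT mouse and Plet1 without any 1 of the 4 mice, with edgeR adjusted p-values of up to 0.0965 and 0.115. DESeq2 called 1 of the 10 upper follicle genes higher and 4 lower, against 570 higher and 621 lower of 26954 genes. Among the 4 were Krt17 (-1.02, DESeq2 adjusted p = 9.9e-04) and Krt80 (-0.76, 0.00367), which were chosen here after their values were seen.

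With edgeR, no gene of the other lists passed in the bulge. Of 14 other bulge stem cell genes 9 were negative (median -0.13), with Foxc1 at -0.84 (edgeR adjusted p = 0.0693) and Cd59a at -0.74 (0.0691). Of 11 tested hair germ genes 6 were negative (median -0.16), with the transcription factor Runx1 at -0.69 (0.0894) and the chemokine Cxcl14 at -1.18 (0.0993). DESeq2 put Foxc1, Cd59a and Runx1 past the threshold, with adjusted p-values of 0.00627, 0.0391 and 0.0412, and also the bulge keratin Krt15 (-0.75, adjusted p = 1.4e-04), which was named after its value was seen. Among 7 tested R-spondin signalling genes, which serve Lgr5 and Lgr6, 3 were negative (median 0.02). The ligand Rspo3 was at -0.80 (edgeR adjusted p = 0.0808) and the receptor Lgr4 at -0.18 (0.640). Among 7 adherens junction genes, which serve Cdh3, 2 were negative (median 0.02). Nectin1 was at 0.39 (edgeR adjusted p = 0.207) and Afdn at -0.20 (0.584). Among 7 tested hedgehog reception genes, which serve Gas1, 3 were negative (median 0.10). Boc was at -0.31 (edgeR adjusted p = 0.479).

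The remaining lists covered the receptors of the matrix genes and the relatives of the other markers. Among 4 tested integrin genes for Npnt and Postn, 2 were negative (median -0.17). Itgb5 was at -0.40 (edgeR adjusted p = 0.197) and Itgav at 0.36 (0.229). Among 5 genes of the Lrig and ErbB families, 2 were negative (median 0.29). Egfr was at 0.61 (edgeR adjusted p = 0.116), in the opposite direction to Lrig1, and Erbb2 at 0.33 (0.282). DESeq2 put Egfr past the threshold, with an adjusted p of 0.0186. Among 4 tested relatives of Cd34, Cd200 and Ly6a, 4 were negative (median -0.56). Ly6d was at -0.90 (edgeR adjusted p = 0.0580) and Cd59a at -0.74. DESeq2 gave Ly6d an adjusted p of 1.3e-04. Neither hair germ SHERRY2 (limma) nor SMART-seq (edgeR) had a call in any list, with 0 to 2 genes of a list at an unadjusted p under 0.05. edgeR on whole reads of hair germ SHERRY2 put 1 bulge gene past, Tbx1 at 2.55 (adjusted p = 0.0240), which is high in cKO mouse 1 only. The upper follicle list had a median of 0.81 and 0.50 there, against -0.90 in the bulge, a difference between datasets that was not tested.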

How the data were processed

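The 12 RNA-seq libraries formed 6 groups of 2 mice. The authors deposited read counts and FPKM per gene for the bulge, read counts for SMART-seq, and for hair germ SHERRY2 a signal of read counts divided by a size factor, beside the authors' log2 fold changes and p-values. Per the submitters' processing notes, the tools named include STAR, featureCounts and DESeq2, with HISAT2 and Subread also named for SMART-seq, and the builds GRCm38, mm10 and GRCm39. The sources used here give no versions, annotation or use of strand. Mouse columns were matched by name, with 0 columns unmatched.

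edgeR 4.0.16 (quasi-likelihood, TMM, filterByExpr) in R 4.3.3 was used on the bulge and SMART-seq counts. The hair germ SHERRY2 values were normalized, so limma 3.58.1 with an intensity trend was used on log2(value + 1) for genes whose mean reached 1. Whole reads were recovered there for 100% of values within 0.01 reads (size factors 0.632 to 1.36), for edgeR and DESeq2 1.42.0 as alternatives. Differences of the genotype effect were dataset-by-genotype terms in joint fits. Tests were two-sided, with Benjamini-Hochberg adjustment over all genes tested at 0.05. The fits within datasets were also run on simulated counts with the same spread for every gene. This does not show how they behave with the spread between these mice. Hair germ FPKM used the exonic lengths of the bulge table. The Cd34 to Cdh3 ratio was tested by exact permutation with scipy 1.17.1. With 2 mice a group, p-values measure the spread between these mice. Mouse numbers were not taken as pairs: same-numbered mice had correlations of 0.07 (bulge), -0.43 (hair germ SHERRY2) and 0.27 (SMART-seq). In SMART-seq, Y-linked reads were at 0 CPM in both mice numbered 1 and at 278 and 269 CPM in both numbered 2. The main SMART-seq fit leaves differences along that split in its error, and the replicate block was run as an alternative.

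The genes and lists were chosen with earlier results of these data known. Besides the 10 genes and Alkbh5, a list's genes are named if past 0.05, otherwise the 2 with the lowest p in the bulge, and the 3 genes most like Cd34, Cdh3 and Lgr5; 1 gene so named is not reported here. Alternatives were DESeq2, upper-quartile scaling, no filter, other pseudocounts, a replicate block and leaving out each library. Promoters came from RefSeq, which listed 7 of the 10 genes.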

Additional observations from a re-analysis of the deposited data

How the results depend on the processing

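The count of marker genes past 0.05 stayed at 0 in the 3 datasets under DESeq2, the other scalings and pseudocounts run, and the replicate block, with 2 exceptions: without a filter on counts it was 1 in the bulge (Cd200, edgeR adjusted p = 1.4e-04), and it was 1 (Npnt) in hair germ SHERRY2 with the mouse numbers crossed in the block, chosen after seeing the data, where 408 genes rose and 60 fell against 3 and 0 without it. Leaving out 1 mouse gave 0 to 4 in the bulge and 0 in both hair germ datasets. Fold changes that changed sign when 1 mouse was left out had these ranges. Bulge: Cd34 -0.81 to 0.58, Cdh3 -0.19 to 0.13, Lgr5 -1.11 to 0.11, Npnt -0.80 to 0.061, Postn -0.65 to 0.56, Ly6a -0.14 to 0.43 and Lgr4 -0.38 to 0.0046. Hair germ SHERRY2: Cd34 -0.76 to 0.00032, Lgr5 -0.075 to 2.16, Lrig1 -0.24 to 1.04, Postn -0.70 to 0.74, Gas1 -0.066 to 1.68 and Ly6a -0.35 to 2.85. SMART-seq: Cd34 -1.10 to 1.16, Cd200 -0.42 to 0.74, Lrig1 -0.20 to 0.70, Postn -0.95 to 1.55, Ly6a -3.36 to 2.91 and Alkbh5 -0.52 to 0.0032. The replicate block turned Cd34 to -0.12 and Postn to -0.039 in the bulge and Postn to 0.29 in SMART-seq, and edgeR on whole reads turned Postn to -0.045 in hair germ SHERRY2; none of these passed and the cause was not tested. The Cd34 to Cdh3 difference was -0.15 with SMART-seq as the hair germ, 1.11 with a pseudocount of 5 CPM, 0.50 over WT mice, and 0.94 to 1.72 with 1 mouse left out. In hair germ SHERRY2, 12 to 62 reads per marker gene in WT mouse 2 limit the precision. Exact permutation of 2 against 2 WT libraries cannot reach 0.05. Among the listed genes of the bulge, the replicate block put Cxcl14 (edgeR adjusted p = 0.0255) and Ly6d (0.0423) past the threshold and Plet1 short of it (0.0558). Without a filter on counts 1 upper follicle gene was higher and 8 lower, against 728 and 821 of 26954 genes.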
